A study of Mus musculus with 9 samples.

Results

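The comparison described here set primary mouse astrocytes given amyloid-beta (Aβ) and acetate against astrocytes given acetate alone. It rested on 6 of the 9 libraries of the study, 3 per group, chosen by their labels and not by any measured value. All 9 cultures were cortical astrocytes from wild-type C57BL/6 pups at P1. The Aβ plus acetate group had 1 µM Aβ for 5 days from day 8 in vitro. Both groups had 10 mM sodium acetate, and both spent the day from day 11 to the harvest on day 12 in glucose-free medium. The 3 control libraries came from naive cultures after the same glucose-free day. They were not part of the comparison, but they entered the fit and are quoted beside it. Since both groups carried acetate and lacked glucose, the comparison addressed Aβ on that background, and Aβ without acetate was not analysed here. The titles call the samples biological replicates; the labels do not say how many pups or preparations a library holds, so p-values measure the spread between libraries as labelled.

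Astrocytes take up Aβ, break it down in lysosomes and with extracellular proteases, and respond to it with a reactive state marked by intermediate filaments, acute-phase proteins and chemokines. Oxidative and electrophilic stress is read by KEAP1, which holds the transcription factor NRF2 for degradation; once freed, NRF2 pairs with small MAF proteins on antioxidant response elements and drives haem breakdown, glutathione synthesis and thioredoxin recycling. Acetate reaches the cell through monocarboxylate transporters and is turned into acetyl-CoA by ACSS1 in mitochondria and ACSS2 in the cytosol and nucleus.

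Expression was measured by poly(A) RNA sequencing as CPM, read counts scaled to the same total in each library. The smallest steps between low values implied 24510000 to 53310000 reads in the 6 libraries. By the naming style of the library names the libraries fell into 2 sets, whose meaning the labels do not give. Set 1 held acetate 1 and Aβ plus acetate 1 with 2 controls. Set 2 held acetate 2 and 3 and Aβ plus acetate 2 and 3 with 1 control. The first principal component of all 9 libraries separated the sets and took 89.7% of the variance, so groups were compared within sets. Of 18061 listed genes, 14058 reached 1 CPM in 3 or more libraries and were tested. Astrocyte markers summed to 9252 to 12948 CPM in the 6 libraries, with Gfap, the astrocyte intermediate filament, alone at 4126 to 6543 CPM, so the cell type named by the labels was read in every library. The ribosomal precursor Rn45s took 3.38% of CPM in acetate 1 and 3.15% in Aβ plus acetate 1, but 2.17% and 1.45% in acetate 2 and 3 and 0.486% and 0.675% in Aβ plus acetate 2 and 3; its part in the results below was not tested.

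No gene passed the test in either direction. The smallest adjusted p was 0.913 by limma on log2(CPM + 1) with the library set in the fit and Benjamini-Hochberg adjustment. At an unadjusted p under 0.05, limma counted 323 genes higher (2.3% of those tested) and 113 lower (0.804%), 436 in all (3.1%) where 702.9 would be expected by chance alone. The fitted log2 difference was small across genes, with a median of 0.020, a 5th percentile of -0.17 and a 95th percentile of 0.22, and 25 genes differed by more than 1.5-fold. In the exact permutation of 1 gene's values within sets the smallest p this design allows is 0.167. All differences below are therefore descriptions of these libraries, given as Aβ plus acetate minus acetate on the log2(CPM + 1) scale, which understates the change of low genes.

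A second, looser count was used to place gene groups against the background. In 1554 genes (11.1%) every Aβ plus acetate library lay above every acetate library of its own set, in both sets, and in 579 genes (4.12%) every one lay below. With the values rescaled by the median of ratios the shares were 7.38% and 6.65%, and with quantile normalization 7.94% and 6.12%. The share of genes with a positive fitted difference was 58.8% as deposited, 46.4% under median-of-ratios scaling and 50% under quantile normalization, since the rescaling moved the median to -0.0079 and to about 0. The direction of single genes with differences as small as this shift thus depends on the scaling. Of all genes, 361 (2.57%) lay above both acetate and control within each set and 191 (1.36%) below both.

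Genes of the NRF2 antioxidant response stood higher with Aβ plus acetate, led by the haem oxygenase Hmox1 and the sulfiredoxin Srxn1. All 34 listed members were tested and none passed. The fitted value was higher for 30 and lower for 4, with a median of 0.12 against 0.020 over all genes, and the medians were 0.12 in set 1 and 0.11 in set 2. Within both sets 15 of 34 (44.1%) lay above acetate and 0 below, against 11.1% and 4.12% of all genes. Under median-of-ratios scaling 26 of the 34 were higher and 11 lay above acetate in both sets, where 7.38% of all genes did. Leaving out any library left at least 28 members higher.

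Hmox1 breaks haem into biliverdin, iron and carbon monoxide and lies on chromosome 8 at 75093618 to 75100594 (mm10, plus strand). It read 102, 293 and 315 CPM in acetate 1, 2 and 3 and 161, 487 and 395 CPM in Aβ plus acetate 1, 2 and 3. Within each set every Aβ plus acetate library was above every acetate library, though acetate 2 and 3 were above Aβ plus acetate 1 of the other set. The fitted difference was 0.57 ± 0.093 (SE), a 1.49-fold change with a 95% interval of 0.37 to 0.78 in log2, and it was 0.66 in set 1 and 0.53 in set 2. It had the smallest unadjusted p of all genes by limma, 6.49e-05. The controls read 116, 121 and 300.0 CPM, below the Aβ plus acetate libraries of their set.

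Srxn1 repairs over-oxidised peroxiredoxins. It read 37.0, 66.9 and 82.9 CPM in the acetate libraries and 52.9, 117 and 95.2 CPM with Aβ plus acetate, again without overlap inside a set. The difference was 0.50 ± 0.10 and nearly the same in both sets, at 0.50 and 0.50; the controls read 41.2, 43.8 and 82.9 CPM. In the glutathione branch, Gclm, the modifier subunit of the enzyme that makes the glutathione precursor, read 72.8, 89.3 and 93.5 CPM and then 76.6, 113 and 102 CPM, a difference of 0.18. Slc7a11, the cystine importer that feeds glutathione synthesis, read 5.49, 135 and 217 CPM and then 18.5, 217 and 203 CPM. Its difference of 0.72 ± 0.24 came mostly from set 1 (1.59 against 0.29 in set 2, where acetate 3 was level with the Aβ plus acetate libraries), and it was 0.41 without acetate 1 and 0.39 without Aβ plus acetate 1. Nqo1, a quinone reductase, read 13.3, 13.04 and 8.91 CPM and then 15.6, 12.6 and 13.1 CPM and overlapped in set 2.

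The 6 regulators of the pathway had a median of 0.11, near the 0.12 of the whole list, and differed among themselves. Mafg, a small MAF partner of NRF2, read 19.9, 34.9 and 37.2 CPM and then 23.6, 44.4 and 43.1 CPM (0.26 ± 0.10), without overlap inside a set, but its controls at 29.1, 22.3 and 42.5 CPM overlapped them. Nfe2l2, which encodes NRF2, read 440.2, 392 and 395 CPM and then 407, 427 and 413 CPM, a difference of 0.025 that became negative under median-of-ratios scaling. Keap1, the inhibitor, read 67.7, 74.5 and 66.0 CPM and then 62.6, 68.2 and 64.9 CPM (-0.087). Bach1, a repressor that competes for the same elements, differed by 0.025, and Sqstm1, the autophagy receptor that binds KEAP1, by 0.20. By role, 3 of 4 haem and iron genes and 3 of 5 thioredoxin and peroxiredoxin genes lay above acetate within both sets. So did 3 of 8 genes of glutathione use, 3 of 7 quinone and NADPH genes, 1 of 4 genes of glutathione synthesis and 2 of 6 regulators. Of all genes 11.1% did, and role groups of 4 to 8 genes are too small to rank.

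The promoters of 2 NRF2 targets are shown because each holds the core of the antioxidant response element, TGACNNNGC, searched on both strands. The windows run from 250 bases before to 50 bases after the RefSeq start (GRCm38.p6), and the capitals mark the core, which reads on the minus strand of the window in both. For Srxn1 (chr2:152105274-152105573, plus strand) it lies 29 to 37 bases after the start, and for Gclm (chr3:122245307-122245606, plus strand) 134 to 126 bases before it.
Srxn1: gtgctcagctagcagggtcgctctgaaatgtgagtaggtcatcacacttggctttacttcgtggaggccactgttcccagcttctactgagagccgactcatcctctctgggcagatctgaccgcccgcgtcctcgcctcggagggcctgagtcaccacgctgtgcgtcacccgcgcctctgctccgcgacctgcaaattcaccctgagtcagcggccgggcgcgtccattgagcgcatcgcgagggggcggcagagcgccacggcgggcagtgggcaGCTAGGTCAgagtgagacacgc
Gclm: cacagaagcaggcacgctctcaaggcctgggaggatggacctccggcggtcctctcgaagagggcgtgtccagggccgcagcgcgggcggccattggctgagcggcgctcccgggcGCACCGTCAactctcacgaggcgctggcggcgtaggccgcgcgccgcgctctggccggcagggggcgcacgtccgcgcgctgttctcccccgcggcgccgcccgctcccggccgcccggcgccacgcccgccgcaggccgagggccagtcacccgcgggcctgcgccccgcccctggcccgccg
The core was present in 10 of the 28 NRF2 genes matched to a window (35.7%) and in 14.0% of the 27025 genes with a window. Such a match is a description of letters and does not show binding.

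**Figure D1:**
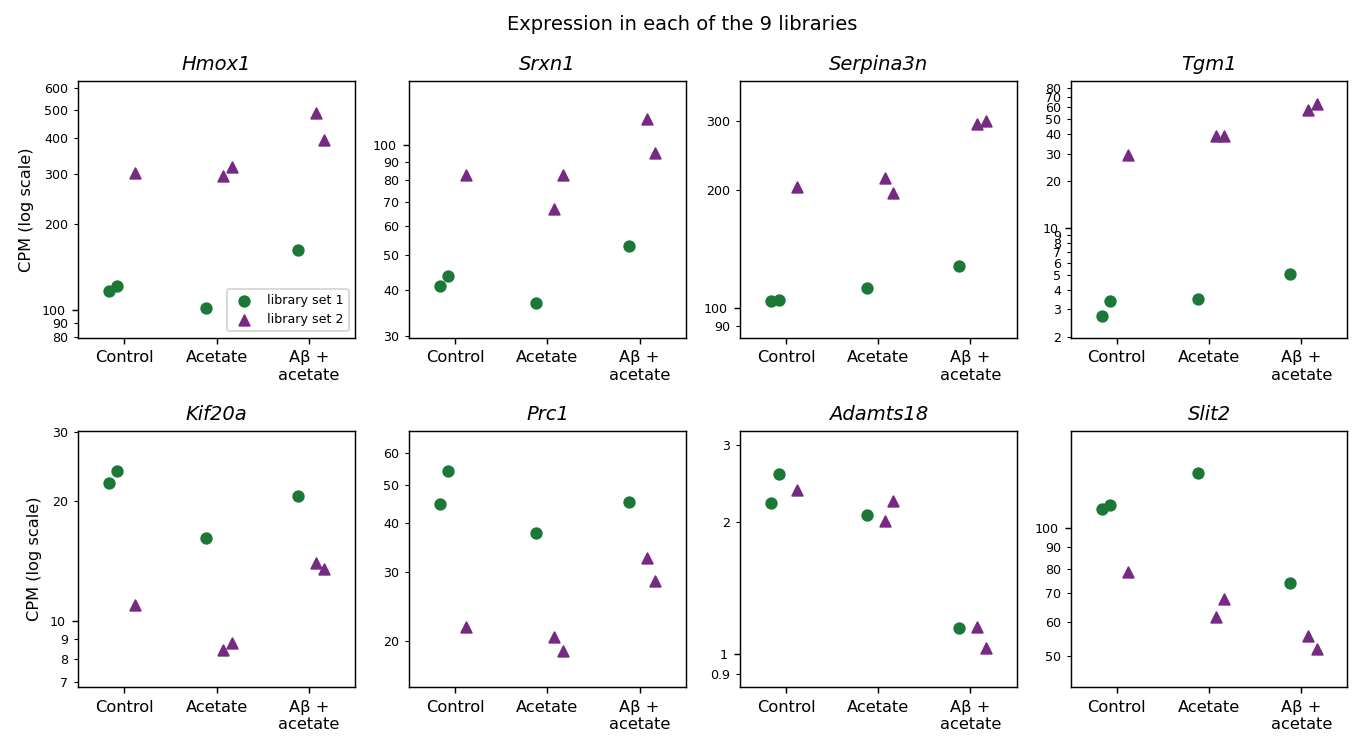
CPM on a log scale for 8 genes in each of the 9 libraries, by group; circles are library set 1 and triangles library set 2, and each point is 1 library. For Hmox1, Srxn1, Serpina3n and Tgm1 the Aβ plus acetate points lie above the acetate and control points of their own set, for Kif20a and Prc1 above acetate, and for Adamts18 and Slit2 below both.

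Genes of mitosis and the spindle were higher with Aβ plus acetate in all 25 tested members, and had the largest median of the 30 lists. None passed the adjusted threshold, while 16 had an unadjusted p under 0.05 by limma (2.3% of all genes did in that direction). The median difference was 0.30, at 0.18 in set 1 and 0.36 in set 2. Within both sets 20 of 25 (80%) lay above acetate and 0 below, against 11.1% and 4.12% of all genes. Under median-of-ratios scaling 19 of the 25 lay above, where 7.38% of all genes did. The 25 members summed to 528 CPM in acetate 1 and 583 in Aβ plus acetate 1. In set 2 they summed to 339 and 329 CPM with acetate and 451 and 420 with Aβ plus acetate. The 3 controls summed to 654, 748 and 369 CPM, so Aβ plus acetate lay below the controls in set 1 and above the control in set 2.

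Kif20a, a kinesin that acts in the last step of cell division, read 16.1, 8.40 and 8.78 CPM with acetate and 20.6, 13.9 and 13.5 CPM with Aβ plus acetate, a difference of 0.52 ± 0.11. Its controls read 22.2, 23.9 and 10.9 CPM; the fitted difference from control was -0.44 for acetate and 0.08 for Aβ plus acetate. Prc1, which cross-links the spindle midzone, read 37.7, 20.5 and 18.9 CPM and then 45.0, 32.6 and 28.4 CPM (0.49 ± 0.13). Aurka, a spindle pole kinase, read 9.31, 4.14 and 3.67 CPM and then 11.6, 6.48 and 5.33 CPM (0.42). Cdc20, an activator of the anaphase-promoting complex, read 15.9, 8.82 and 8.01 CPM and then 17.6, 12.5 and 11.5 CPM (0.35). Birc5, a subunit of the chromosomal passenger complex, differed by 0.39, and Mki67, the proliferation marker, by 0.32, from 54.9, 40.3 and 42.0 CPM to 62.5, 53.7 and 55.2 CPM. In each of these 6 genes the acetate libraries lay below the Aβ plus acetate libraries of their set.

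Acetate against control called 0 genes by limma and Aβ plus acetate against control called 0, with 3.22% and 3.59% of tested genes at an unadjusted p under 0.05. Over the mitosis list the median difference from control was -0.29 with acetate and 0.027 with Aβ plus acetate, and 0 of 25 members lay above both acetate and control within both sets. The comparison with acetate and the comparison of acetate with control share the acetate libraries, so the low acetate values enter both. Genes of DNA replication and the G1/S step, which act earlier in the cell cycle, did not stand apart in the same way. Of 20 tested, 14 were higher and 6 lower, where 58.8% of all genes were higher, and the median was 0.040. Within both sets 3 (15%) lay above acetate and 3 (15%) below, against 11.1% and 4.12% of all genes.

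The promoters of Prc1 and Cdc20 are shown because they hold the pair of elements that is common in genes of this phase, the CHR element TTTGAA and a CCAAT box (CCAAT), both searched on both strands; the capitals mark them. The Prc1 window is the first of 2 in the table (chr7:80294201-80294500, plus strand) and the Cdc20 window lies on the minus strand (chr4:118437294-118437593).
Prc1: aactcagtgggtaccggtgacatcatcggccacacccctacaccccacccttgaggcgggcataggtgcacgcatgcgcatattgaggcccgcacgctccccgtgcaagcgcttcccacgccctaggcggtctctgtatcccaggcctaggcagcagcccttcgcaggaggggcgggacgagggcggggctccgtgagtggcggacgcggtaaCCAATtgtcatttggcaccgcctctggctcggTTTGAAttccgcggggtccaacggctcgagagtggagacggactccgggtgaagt
Cdc20: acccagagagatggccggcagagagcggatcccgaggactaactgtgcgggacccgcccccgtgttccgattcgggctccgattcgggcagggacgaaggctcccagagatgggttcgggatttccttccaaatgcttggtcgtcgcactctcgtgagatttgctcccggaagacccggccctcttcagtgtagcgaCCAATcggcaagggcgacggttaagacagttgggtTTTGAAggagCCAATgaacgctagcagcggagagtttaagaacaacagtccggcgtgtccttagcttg
In Prc1 the CHR starts 5 bases before the RefSeq start, and in Cdc20 it spans 18 to 13 bases before it. Both elements were found in 15 of the 21 mitosis genes with a window (71.4%), in 1 of 28 NRF2 genes (3.57%) and in 7.97% of all genes with a window (GRCm38.p6).

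**Figure D2:**
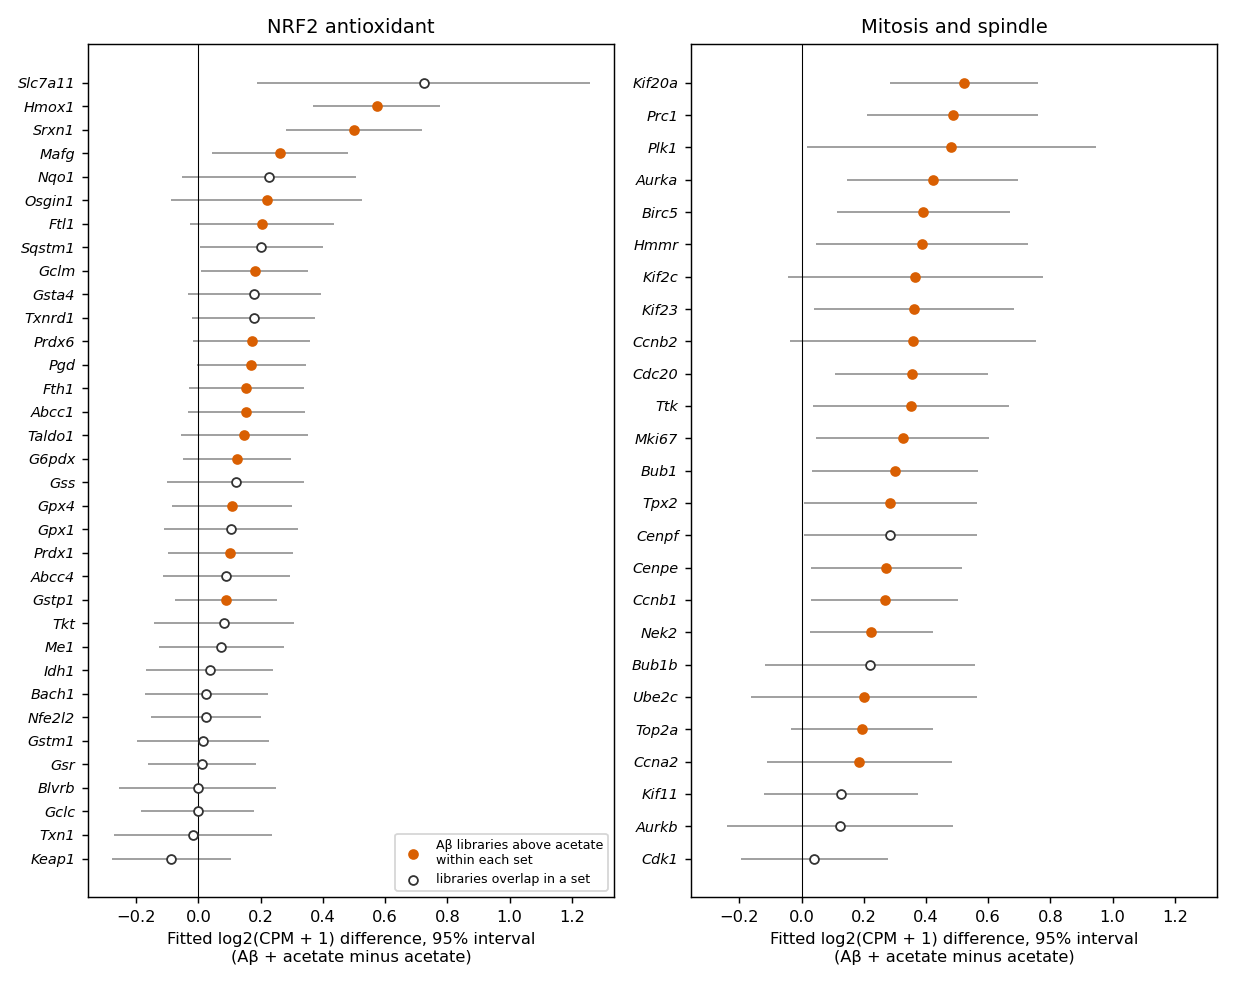
Fitted log2(CPM + 1) difference, Aβ plus acetate minus acetate, with its 95% interval from limma, for the 34 NRF2 genes and the 25 mitosis genes. Filled points are genes whose Aβ plus acetate libraries all lie above the acetate libraries of their set, 15 and 20 of them.

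Markers of the reactive astrocyte state were mostly higher. Of 13 pan-reactive genes, 10 were higher and 3 lower, where 58.8% of all genes were higher. The median was 0.19 (0.18 in set 1 and 0.19 in set 2). Within both sets 5 (38.5%) lay above acetate and 0 below, against 11.1% and 4.12% of all genes. The same 5 of 13 lay above both acetate and control within both sets, where 361 of all genes (2.57%) did. Those 361 are among the 1554 genes above acetate. Serpina3n, a secreted protease inhibitor, read 112, 214 and 197 CPM with acetate and 128, 295 and 301 CPM with Aβ plus acetate (0.42 ± 0.086), against controls of 104, 105 and 204 CPM. Lcn2, an iron-siderophore carrier released by reactive astrocytes, read 4.04, 6.30 and 12.0 CPM and then 5.96, 16.1 and 17.5 CPM (0.73 ± 0.21). Cxcl10, an interferon-inducible chemokine, read 3.56, 73.6 and 62.7 CPM and then 9.10, 84.5 and 80.5 CPM; its difference was 1.15 in set 1 and 0.28 in set 2. The remaining pair were the small heat shock protein Hspb1 (0.53) and the hyaluronan receptor Cd44 (0.19).

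The filament genes overlapped in set 2. Gfap read 4126, 6111 and 4767 CPM with acetate and 4809.5, 5709 and 6543 CPM with Aβ plus acetate (0.19 ± 0.11), with acetate 2 above Aβ plus acetate 2. Vim, which encodes vimentin, read 6177, 7844 and 6481 CPM and then 6052, 8655 and 7656 CPM (0.12). Of the A2 set, named for genes seen after ischaemia, 4 of 11 (36.4%) lay above acetate within both sets and 0 below. Of all genes 11.1% lay above and 4.12% below. Under median-of-ratios scaling 3 of the 11 lay above, where 7.38% of all genes did. The 4 were Tgm1, a transglutaminase (0.55 ± 0.11), Ptx3, a soluble pattern-recognition protein (0.51), Sphk1, which makes sphingosine 1-phosphate (0.54), and Ptgs2, a prostaglandin synthase (0.43). Tgm1 read 3.50, 39.2 and 38.9 CPM and then 5.10, 57.2 and 62.8 CPM, so the sets lay much further apart than the groups, which differed 1.46-fold within them. Of the A1 set, named for genes seen after endotoxin, 1 of 13 (7.69%) lay above acetate, H2-D1 (0.17), and 1 (7.69%) below, Fbln5 (-0.23). These shares were near those of all genes. C3, the complement component often used as an A1 marker, read 99.9, 1095 and 1315 CPM and then 99.1, 1348 and 1365 CPM (0.11 ± 0.12) and the libraries of set 1 were level.

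Cytokine and chemokine genes under NF-kB control were little expressed. Of 27 members, which include 9 regulators and adhesion genes, 25 were listed and 16 passed the filter on low values. Of the 16, 13 were higher, with a median of 0.16. Within both sets 6 (37.5%) lay above acetate, where 11.1% of all genes did. All 8 tested regulators and adhesion genes were higher, and 4 of them lay above acetate. Of 4 tested chemokines 2 were higher and 2 lower, and of 4 tested cytokines 3 and 1. In each of these role groups 1 gene lay above acetate within both sets. Ccl2, the monocyte chemoattractant, read 1.12, 11.2 and 6.64 CPM with acetate and 6.57, 12.8 and 11.9 CPM with Aβ plus acetate. The difference of 0.93 ± 0.25 was 1.84 in set 1 and 0.47 in set 2, and 0.59 without acetate 1 or 0.58 without Aβ plus acetate 1. The NF-kB subunits Nfkb2 (0.19) and Relb (0.20) and the cytokine Lif (0.26) were also higher within both sets, as was Ptgs2, given above. None of 19 interferon response genes lay above acetate within both sets and the median was 0.032.

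Among 23 tested immediate early genes the median was 0.11. Within both sets 4 (17.4%) lay above acetate and 1 (4.35%) below, against 11.1% and 4.12% of all genes. Under median-of-ratios scaling 3 lay above, where 7.38% of all genes did. Fosl1, an AP-1 subunit, differed by 1.06 ± 0.30 at very low values, with 0.223, 1.35 and 0.387 CPM and then 0.825, 3.62 and 3.26 CPM against controls of 1.02, 1.12 and 0.537 CPM. Atf3, a stress-induced factor, read 6.57, 161 and 159 CPM and then 11.9, 189 and 166 CPM (0.35), a difference of 0.77 in set 1 and 0.15 in set 2 that was 0.10 without acetate 1. Nr4a3, an orphan nuclear receptor, was lower in every Aβ plus acetate library than in any acetate library, at 10.1, 10.4 and 10.1 CPM and then 7.10, 7.70 and 9.47 CPM (-0.31). Among 16 cytosolic heat shock genes 3 (18.8%) lay above acetate within both sets, where 11.1% of all genes did. Hspa1a read 16.1, 19.6 and 9.68 CPM and then 16.7, 41.5 and 26.7 CPM. Its difference of 0.82 was 0.50 without Aβ plus acetate 2 and 0.51 without acetate 3. Hspa1b, a near-identical copy whose reads can be split with it, differed by 0.74, and by 0.42 without Aβ plus acetate 2.

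Of genes that take up or degrade Aβ, 21 of 23 were tested. The fitted value was higher for 14 and lower for 7, where 58.8% of all genes were higher, with a median of 0.056. Within both sets 3 (14.3%) lay above acetate and 2 (9.52%) below, against 11.1% and 4.12% of all genes. Mme, which encodes the Aβ-degrading protease neprilysin, was lower, at 158, 61.8 and 66.6 CPM and then 105, 54.7 and 54.0 CPM (-0.35 ± 0.15, and -0.18 without acetate 1), and lay below control as well (109, 151 and 86.5 CPM). Ece1, another protease that cleaves Aβ, was higher in every Aβ plus acetate library, at 32.1, 32.7 and 32.7 CPM and then 39.4, 36.8 and 37.3 CPM (0.22). Mertk, a phagocytic receptor, differed by 0.20. The uptake receptor Lrp1 read 623, 608 and 639 CPM and then 606, 707 and 786 CPM (0.16) and was lower in set 1. The lipid carriers and their transporter differed little: Apoe by 0.035, Clu by -0.077 and Abca1 by 0.056. App, the amyloid precursor itself, read 1257, 1072 and 1054 CPM and then 1297, 1132 and 1037 CPM (0.033 ± 0.076), and over 14 genes of the precursor family and the secretases the median was -0.0058.

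Lysosomal genes were higher in 25 of 27, where 58.8% of all genes were. Their median was 0.10, at 0.22 in set 1 and 0.047 in set 2. Within both sets 10 (37%) lay above acetate and 0 below, against 11.1% and 4.12% of all genes. Under median-of-ratios scaling 6 of the 27 lay above, where 7.38% of all genes did. Mcoln1, the lysosomal calcium channel, read 47.1, 54.0 and 53.0 CPM and then 53.3, 63.0 and 57.9 CPM (0.17 ± 0.072). The cathepsins Ctsl and Ctsb differed by 0.21 and 0.16, and by 0.12 and 0.052 without acetate 1. Autophagy factors lay near the background, with a median of 0.036 and 2 of 13 above acetate.

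In cholesterol synthesis 18 of 22 tested genes were higher, where 58.8% of all genes were, with a median of 0.079. Within both sets 7 (31.8%) lay above acetate and 1 (4.55%) below, against 11.1% and 4.12% of all genes. Under median-of-ratios scaling 14 of the 22 were higher and 5 lay above acetate, where 46.4% and 7.38% of all genes did. Lss, the lanosterol synthase, read 43.3, 44.4 and 43.2 CPM with acetate and 52.5, 49.1 and 50.4 CPM with Aβ plus acetate, without overlap over the 6 libraries (0.21 ± 0.073), and the controls read 56.3, 54.4 and 59.7 CPM. Fdft1 and Fdps, which act before it, differed by 0.24 and 0.18. The list was lower than control with acetate (median -0.23) and with Aβ plus acetate (-0.16); these comparisons share libraries with the main one. Genes that carry and use acetate were close to level in their median. Acss2 read 34.6, 29.3 and 22.9 CPM and then 39.1, 27.2 and 26.7 CPM (0.093). Acss1 differed by -0.0061, Acly, the ATP citrate lyase, by 0.041, and the monocarboxylate transporter Slc16a1 by -0.069. Over 14 tested members the median was -0.0096, with 6 higher and 8 lower. Of the 14, 3 (21.4%) lay above acetate within both sets and 0 below (11.1% and 4.12% of all genes). Under median-of-ratios scaling 1 lay above, where 7.38% of all genes did.

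Identity genes of astrocytes were also near level, with a median of 0.016 and 2 of 20 tested members above acetate. Aldh1l1, a folate enzyme used as an astrocyte marker, was the clearest at 294, 259 and 194 CPM and then 347, 281 and 263 CPM (0.26 ± 0.11). The glutamate transporters Slc1a2 and Slc1a3 differed by 0.022 and -0.044, and the water channel Aqp4 by -0.066. The synapse-acting ligands had a median of -0.015, the mitochondrial respiratory subunits 0.032, glycolysis and hypoxia genes 0.013, endoplasmic reticulum chaperones 0.026, and ATF4 targets 0.064.

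**Figure D3:**
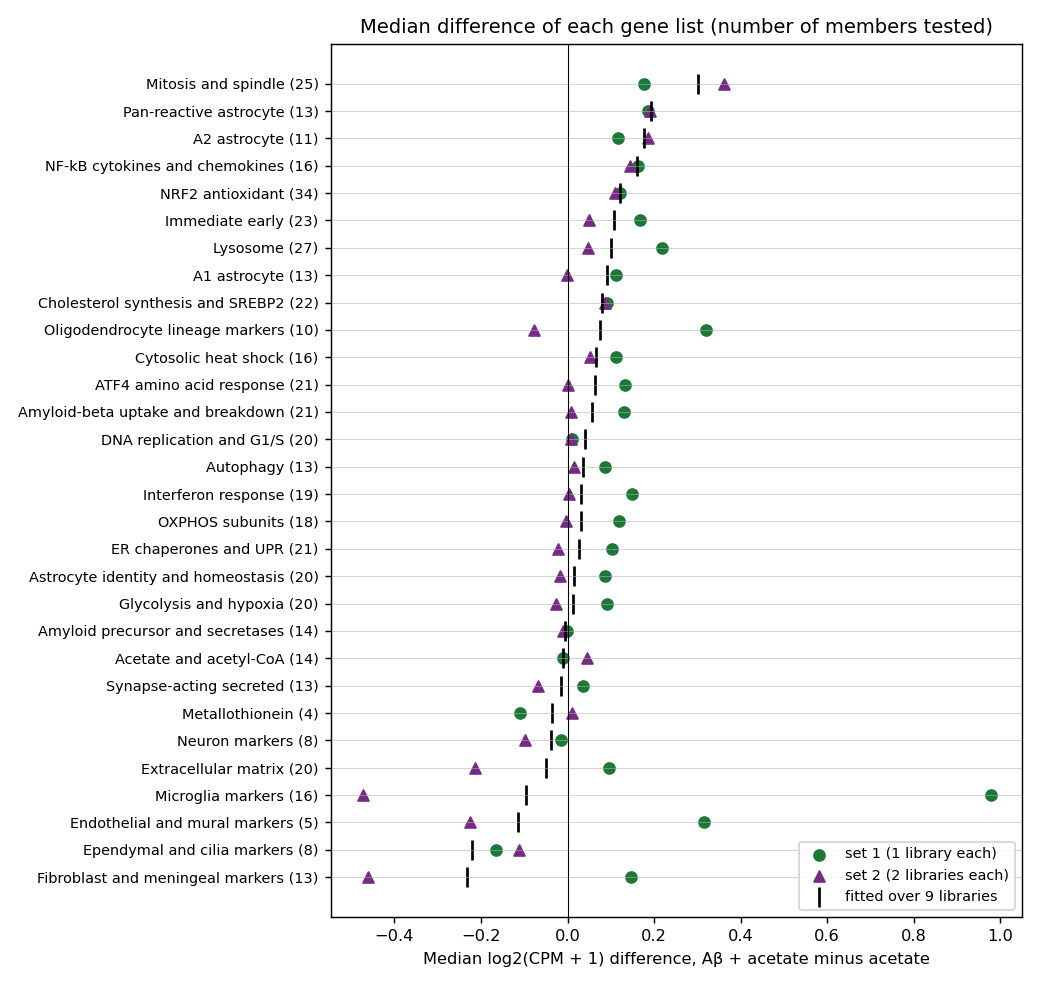
Median log2(CPM + 1) difference, Aβ plus acetate minus acetate, of each of 30 gene lists, with the number of tested members in brackets. Circles are set 1 (1 library of each group), triangles set 2 (2 of each) and bars the fit over 9 libraries; the mitosis list stands at 0.18 and 0.36, the microglia list at 0.98 and -0.47.

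Beyond these lists, a rule named 8 genes a side, taken in order of their limma p before adjustment. On the higher side, Tmod1, an actin filament capping protein, was separated over all 6 libraries (as were 1.91% of tested genes on the higher side) at 5.16, 10.1 and 10.2 CPM and then 13.1, 17.5 and 15.7 CPM (0.84 ± 0.18), against controls of 5.99, 10.3 and 9.03 CPM. Anpep, aminopeptidase N, read 9.40, 27.7 and 26.5 CPM and then 16.2, 38.4 and 40.6 CPM (0.59), and Mir100hg, a microRNA host transcript, read 89.2, 33.8 and 38.4 CPM and then 108, 47.4 and 48.5 CPM (0.36). Hmox1, Srxn1, Tgm1, Serpina3n and Kif20a, given above, complete the 8. Of the 8, 6 also lay above control within both sets, and Kif20a and Anpep did not.

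On the lower side, Adamts18, a secreted metalloprotease, was the clearest, at 2.08, 2.01 and 2.23 CPM with acetate and 1.14, 1.15 and 1.03 CPM with Aβ plus acetate (-0.56 ± 0.12). Its controls read 2.21, 2.57 and 2.36 CPM, so the Aβ plus acetate libraries were below all 6 others, and the libraries of the sets were level. Rasgrf2, a Ras exchange factor, was likewise separated at 10.4, 7.34 and 6.91 CPM and then 6.04, 5.15 and 5.21 CPM (-0.49). Slit2, an axon guidance ligand, read 134, 61.5 and 68.0 CPM and then 74.1, 55.7 and 51.9 CPM (-0.46), with most of the difference in set 1 (-0.85 against -0.26). Col8a2 (-0.45), Arxes1 (-0.32) and 2010204K13Rik (-0.49) were lower in both sets. Igf2, a growth factor made by meningeal cells, read 7.75, 14.1 and 3.77 CPM and then 5.18, 1.18 and 1.501 CPM; its difference of -1.41 ± 0.36 was -0.84 without acetate 2. Col1a2, a collagen chain, read 214, 39.0 and 27.9 CPM and then 185, 19.1 and 20.7 CPM (-0.54) and was -0.36 without acetate 2.

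Markers of other cells moved with library and group. The summed level of 10 microglia markers was 34.4 CPM in acetate 1 and 72.5 in Aβ plus acetate 1, but 282 and 256 in acetate 2 and 3 and 130 and 182 in Aβ plus acetate 2 and 3; in bulk RNA fewer cells of a type and less RNA per cell cannot be told apart. Of 16 tested microglia genes, 16 were higher in set 1 (median 0.98) and 0 were higher in set 2 (median -0.47). Cx3cr1, the fractalkine receptor, read 0.844, 26.8 and 31.7 CPM with acetate and 3.02, 4.86 and 9.60 CPM with Aβ plus acetate, and Trem2, a lipid and Aβ receptor of microglia, 5.18, 28.6 and 26.0 CPM and then 12.8, 19.5 and 25.6 CPM. Tmem119 differed by 0.40 in set 1 and -1.02 in set 2, and Cd68, a lysosomal protein of myeloid cells, by 1.00 and -0.069. The test of a set difference called 0 genes (518 at an unadjusted p under 0.05, 3.68%). Its smallest adjusted p by limma was 0.146, shared by Laptm5, Itgb2 and Ctss, 3 myeloid genes, and Gm6793, whose listed position overlapped no gene of that name in the GENCODE annotation.

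Slc7a11, Ccl2, Cxcl10 and the lysosomal genes had larger differences in set 1, where the microglia sum was higher with Aβ plus acetate, than in set 2, where it was lower, and the part of those cells in them was not tested, nor was it for the NRF2 and mitosis genes.

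Fibroblast and meningeal markers (8 genes) summed to 1272 and 1351 CPM in acetate 1 and Aβ plus acetate 1, to 158 and 104 CPM in acetate 2 and 3 and to 87.1 and 86.7 CPM in Aβ plus acetate 2 and 3. Of 13 tested members of that list 10 were lower, with a median of -0.23, at 0.15 in set 1 and -0.46 in set 2. Col1a1 read 359, 35.4 and 13.4 CPM and then 401, 11.05 and 8.98 CPM (-0.65 ± 0.30), and -0.17 without acetate 2. Col3a1 and Lox, other matrix genes, and Dcn differed by -0.55, -0.53 and -0.58. These 3 were higher in set 1 (0.16, 0.20 and 0.24) and lower in set 2, and their differences were -0.31 and -0.21 without acetate 2 and, for Dcn, -0.32 without Aβ plus acetate 2. Col11a1, which lay below acetate in both sets, differed by -0.27. The oligodendrocyte lineage (8 genes) summed to 657 and 708 CPM in set 1 and 164 to 224 CPM in set 2. Ependymal and cilia genes were lower in 7 of 8, with a median of -0.22, and 6 of 8 were lower in both sets, where 19.5% of all genes were; none was separated within both sets, and under median-of-ratios scaling the median was -0.25. Their 4 fixed markers summed to 386 and 342 CPM in acetate 1 and Aβ plus acetate 1, to 543 and 429 CPM in acetate 2 and 3 and to 403 and 499 CPM in Aβ plus acetate 2 and 3. Of 5 tested vessel markers 1 was higher in both sets, Rgs5, a pericyte gene (0.41), and 1 lower in both, Kdr, an endothelial receptor (-0.39). The others, mural genes among them, were higher in set 1 and lower in set 2. The median of the list was 0.32 in set 1 and -0.23 in set 2. Pecam1 and Cdh5 were under 1 CPM in all 6 libraries.

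**Figure D4:**
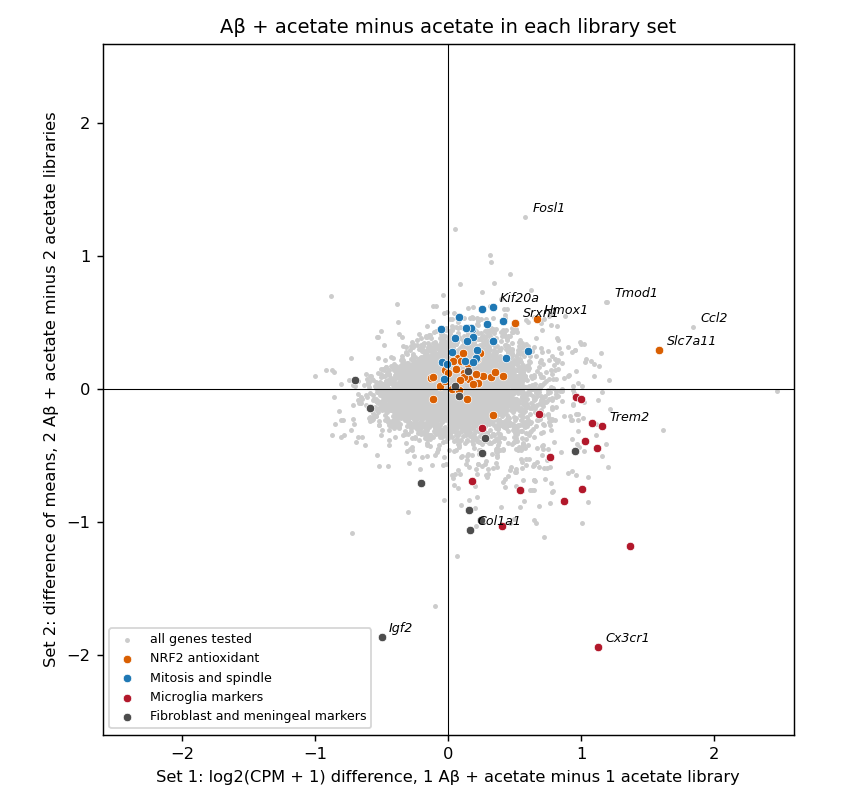
Each point is 1 tested gene, with its log2(CPM + 1) difference in set 1 (x axis) and in set 2 (y axis), and 4 gene lists in colour. Microglia genes lie right of 0 and below 0, mitosis and NRF2 genes mostly right of and above 0.

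Across all 14058 tested genes, which are not independent replicates, the differences of the sets had a Pearson r of -0.0080 and a Spearman rho of 0.057, and 4677 genes (33.3%) were higher in both sets, 2748 (19.5%) lower in both and 6633 (47.2%) went opposite ways. Of the NRF2 list 24 of 34 and of the mitosis list 21 of 25 were higher in both sets.

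**Figure D5:**
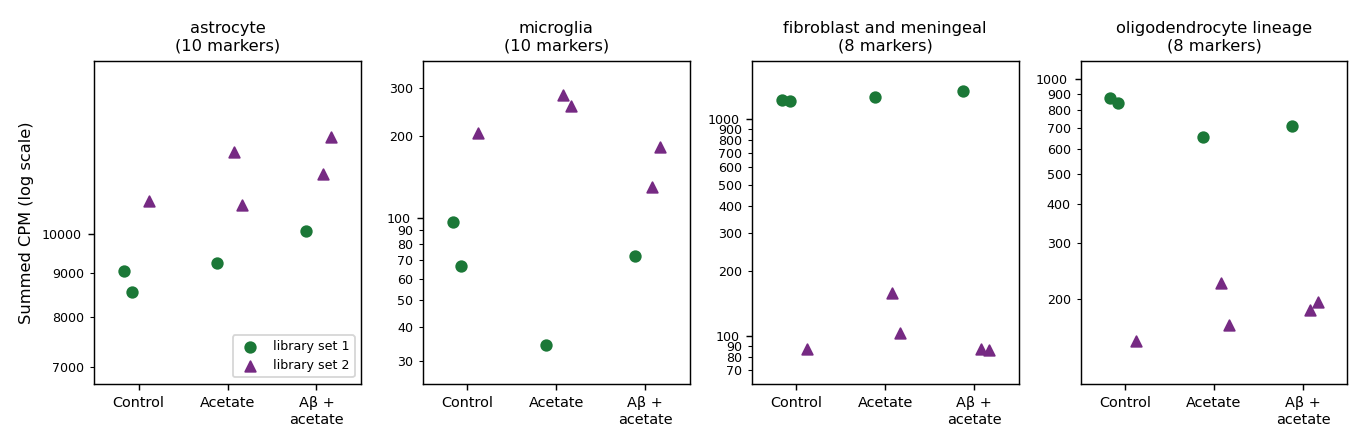
Summed CPM of the markers of 4 cell types in each library, on a log scale, by group and library set. The microglia sum of acetate 1 is the lowest of the 9 libraries at 34.4 CPM, and the fibroblast sums of set 2 lie at 86.7 to 158 CPM.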

How the data were processed

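RNA of 9 primary astrocyte libraries (3 per group) was analysed from the authors' deposited CPM values, 18061 genes per library, together with chromosome positions. Both mm10 and GRCm39 appear as builds in the submitters' processing notes, beside the tools STAR 2.7.3a, FastQC and Partek, with no roles given. Of 17644 symbols found in GENCODE's annotation of mm10, 17612 (99.82%) overlapped their gene, so positions are given as mm10. Poly(A) selection, NEBNext libraries and paired-end HiSeq2500 sequencing are per the labels' protocols. The score sheet was not used.

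Depth was read from the smallest steps between low values, which gave 22150000 to 57020000 reads a library. Of the values worth at most 20 reads, only 93.69 to 94.67% fell within 0.1 of a whole number, so no count model was run. The 14058 genes that reached 1 CPM in 3 or more libraries were tested two-sided on log2(CPM + 1) with limma 3.58.1 (R 4.3.3), over all 9 libraries with group and library set, a trended and robust prior, and Benjamini-Hochberg adjusted p under 0.05; 5 residual degrees of freedom remained. Because the sets hold equal numbers of both groups, the controls and the set add to the error and not to the difference. The fit was tested on simulated data. A separate fit tested the interaction of group and set. A gene was called without overlap where its libraries were separated within each set. The largest share of identical CPM values between 2 libraries was 0.0498%.

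Libraries with the same number deviated from their group means together (r across genes 0.947, 0.761 and 0.853). By that rule the numbers, the same order in titles and library names, pair them. In set 2 libraries of unlike number did so as well, so these r follow the set. Acetate 2 with Aβ plus acetate 3 had an r of 0.844, and acetate 3 with Aβ plus acetate 2 one of 0.862. With the set removed the r of like numbers were -0.388, -0.136 and -0.298. A fit with group and set pulls the r of these pairs below 0 by itself. Alone they therefore cannot show whether the numbers pair libraries within a set. Unlike numbers of set 2 are under the same pull. Their r were 0.136 (acetate 2 with Aβ plus acetate 3) and -0.0564 (acetate 3 with Aβ plus acetate 2). In set 2 libraries of like number were thus no closer than those of unlike number. Named genes were the 8 with the smallest p in each direction, up to 6 of each list by p, a set named whatever its result and the 4 with the smallest interaction p; the text names 87. The members, the lists and the tests were chosen with earlier results of these data known. Alternatives were the set covariate, the libraries entered, a replicate block, pseudocounts of 0.25 and 5, filters, scaling, prior, weights, and each library left out. One gene that the rule names is not reported here. The leave-out counts of list members were chosen after seeing the data.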

Additional observations from a re-analysis of the deposited data

How the results depend on the processing

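All 22 alternatives called 0 genes in each direction by limma, with 38 (no library set covariate) to 866 genes (array quality weights) at an unadjusted p under 0.05 and a smallest adjusted p of 0.206. That value came from the replicate block on the 6 libraries alone (588 genes at an unadjusted p under 0.05; 505 with the replicate block and 9 libraries); the pairing changed no call. Because nothing passed, the alternatives bear on size and direction. Of 87 named genes, 71 kept their direction under every alternative that gave a value. The direction changed in library set 2 alone for Trem2 (-0.28), Cd68 (-0.069), Ctss (-0.25), Laptm5 (-0.44), Itgb2 (-0.59), Gm6793 (-0.014), Apoe (-0.051), Slc16a1 (0.0040), Bach1 (-0.0033) and Slc1a2 (-0.028). With a pseudocount of 5 it changed for Itgb2 (-0.052). Under median-of-ratios scaling it changed for Itgb2 (-0.014), Nfe2l2 (-0.0050), Bach1 (-0.0043) and Slc1a2 (-0.0072), and under quantile normalization for Itgb2 (-0.014) and App (-0.0070). Leaving out a library gave a range that crossed 0 for Abca1 (-0.095 to 0.26), Acss1 (-0.045 to 0.033), Apoe (-0.040 to 0.13), App (-0.0026 to 0.066), Aqp4 (-0.21 to 0.040), Bach1 (-0.029 to 0.061), Cd68 (-0.14 to 0.49), Ctss (-0.28 to 0.41), Gm6793 (-0.081 to 1.15), Itgb2 (-0.53 to 0.26), Laptm5 (-0.42 to 0.29), Nfe2l2 (-0.015 to 0.10), Slc16a1 (-0.12 to 0.014), Slc1a2 (-0.028 to 0.10), Slc1a3 (-0.10 to 0.0094) and Trem2 (-0.26 to 0.41). It moved 38 named genes by over 1.5 times without a change of sign; beside those whose values are in the results, these were Acly (0.02 to 0.068), Acss2 (0.017 to 0.20), Aldh1l1 (0.17 to 0.39), C3 (0.031 to 0.17), Clu (-0.14 to -0.032), Cx3cr1 (-1.68 to -0.40), Cxcl10 (0.27 to 0.69), Ece1 (0.12 to 0.26), Fbln5 (-0.28 to -0.13), Fdft1 (0.15 to 0.30), Gfap (0.10 to 0.29), H2-D1 (0.081 to 0.22), Hspb1 (0.32 to 0.73), Kdr (-0.47 to -0.22), Keap1 (-0.13 to -0.035), Lrp1 (0.058 to 0.32), Mertk (0.13 to 0.24), Nfkb2 (0.10 to 0.24), Nqo1 (0.10 to 0.37), Ptgs2 (0.20 to 0.59), Slit2 (-0.57 to -0.27), Sqstm1 (0.13 to 0.28), Tmem119 (-0.93 to -0.37) and Vim (0.027 to 0.19). Some named genes ranged more widely over all alternatives than over the leave-outs. Among them were Vim (0.027 to 0.82), Adamts18 (-0.79 to -0.22), Fosl1 (0.40 to 1.64) and Dcn (-0.99 to -0.18). The lowest value of Dcn was that of library set 2 alone. For the other genes the cause was not tested. Over all alternatives the NRF2 median ran from 0.091 to 0.15 and the mitosis median from 0.22 to 0.39. The lowest number of members higher in any leave-out was 28 of 34 for NRF2, 24 of 25 for mitosis, 9 of 13 for pan-reactive genes, 12 of 16 for NF-kB and 21 of 27 for lysosome. With 1 library of each group in set 1, that set has no replicate of its own.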
